A study of Mus musculus with 9 samples.

Results

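The genes described here encode the subunits of the fast ligand-gated channels through which glutamate, GABA and glycine act on a neuron. Members were taken by gene symbol, and the set was chosen with earlier results of these data known. All AMPA (Gria1 to Gria4), delta (Grid), kainate (Grik1 to Grik5), NMDA (Grin1, Grin2a to Grin2d, Grin3a, Grin3b), GABA-A (symbols starting with Gabr followed by a subunit letter) and glycine receptor (Glra1 to Glra4, Glrb) symbols were taken, which gave 42 of the 21457 genes in the table. Their levels were followed over 21 clusters of cholinergic neurons of the mouse spinal cord, profiled by single-nucleus RNA sequencing. The clusters fall into 3 skeletal motor neuron types (S1 Type 3, S2 alpha, S3 gamma), 10 clusters of visceral motor neurons (V1 to V10) and 8 of cholinergic interneurons (I1 to I8). The 16042 cholinergic nuclei comprised 5054 skeletal, 5613 visceral and 5375 interneuron nuclei.

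All groups came from mice of 1 genotype, the strain Chat-IRES-Cre::Sun1-sfGFP, heterozygous for both alleles (in the genotype label, Chat-iCre and SUN-SfGFP), aged 8 weeks and untreated. In these mice Cre made from the Chat locus permanently switches on a green fluorescent protein of the nuclear envelope, so that a nucleus is marked if its cell expressed Cre at any time. GFP-positive nuclei were sorted from 12 mice in 3 pools of 4. Pool 1 held 2 males and 2 females, pool 2 males only and pool 3 females only. Each pool was dissected into cervical, thoracic and lumbar/sacral cord, which gave 9 libraries. Libraries of the same replicate number therefore come from the same mice, and n below counts libraries, not mice.

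Fast excitation in the spinal cord is carried mainly by AMPA receptors, tetramers of GluA subunits, with slower voltage-dependent currents through NMDA receptors that pair the obligatory GluN1 subunit with GluN2 or GluN3 subunits. Kainate and delta receptors are related proteins with modulatory and synapse-organising roles. Fast inhibition of motor neurons uses both GABA-A receptors, pentamers usually of alpha, beta and gamma subunits, and strychnine-sensitive glycine receptors, in which an alpha subunit pairs with the beta subunit Glrb that binds the postsynaptic scaffold gephyrin.

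All values are sums of the authors' corrected counts over the nuclei of a library and class or cluster, scaled to counts per 1000000 (CPM). A CPM value is a share of the RNA counted in those nuclei, so a lower level of a gene and more RNA of other genes cannot be told apart. Transcript length and capture differ between genes, so each gene is compared across cells, and genes are set beside each other only as percentages of their family whose change between cells is described. The median corrected count per nucleus ran from 4712 to 16127 over the 9 libraries. The marker list of each class, 4 genes with Chat among them, summed highest in its own class. In skeletal, visceral and interneuron sums the skeletal list stood at 896, 374 and 202 CPM and the visceral list at 327, 1435 and 652 CPM. The interneuron list stood at 322, 237 and 930 CPM. No list was confined to its class, and 1 gene of each is given here. Tns1 stood at 381 CPM in skeletal motor neurons against 31.3 in visceral motor neurons and 5.90 in interneurons, Zeb2 at 387 CPM in visceral motor neurons against 12.6 and 6.68 in the skeletal and interneuron classes, and Pax2 at 211 CPM in interneurons against 7.03 and 3.46 in the skeletal and visceral classes. Oligodendrocyte markers summed to 78.6, 52.0 and 44.8 CPM in the skeletal, visceral and interneuron classes, and the inhibitory neuron markers to 28.5, 43.6 and 315 CPM. Microglia markers summed to 44.3, 30.5 and 39.1 CPM, with SDs over libraries of 42.2, 28.3 and 35.7 CPM. Among the cholinergic nuclei, 24 cell barcodes occurred in more than 1 library.

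Several libraries stood apart. Hoxa9, a gene of thoracic and more caudal levels, was at 9.68 CPM in the library labelled cervical replicate 2, against 0.41 and 0.21 in the other cervical libraries, and at 0.51 CPM in the library labelled thoracic replicate 2, against 9.35 and 9.04 in the other thoracic libraries. These 2 libraries thus went against their region labels. The labels were kept, lumbar/sacral cord was compared with cervical and thoracic cord together, and results were also computed without both libraries. The nuclear RNA Malat1 split the libraries into 4 with 30335 to 34023 CPM (cervical 1, cervical 3, thoracic 1, lumbar/sacral 1) and 5 with 82976 to 124407 CPM. The microglia marker P2ry12 followed the same split, at 3.45 to 7.51 CPM in those 4 libraries and 22.9 to 78.5 CPM in the other 5. Its relation to the subunit levels was not tested. With clusters averaged equally, 12 members in skeletal motor neurons were higher in all 4 libraries of lower Malat1 than in any other library, as were 10.4% of all genes, and 2 were lower, as were 16.2%. The lower ones were Grin3b, at a mean of 52.4 CPM against 110 CPM, and Glrb, at 214 against 267 CPM. In visceral motor neurons the counts were 8 higher (7.28% of all genes) and 1 lower (18.2%), and in interneurons 10 higher (10% of all genes) and 3 lower (23.4%). Every comparison of classes or types below is made within libraries, and the counts of called members in libraries of lower and of higher Malat1 alone are given beside it. S2 nuclei of the library labelled cervical replicate 2 also carried markers of the other classes, with Zeb2 at 133 CPM against 0 to 9.35 CPM and Pax2 at 45.1 CPM against 0 to 14.3 CPM in the other 8 libraries.

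The AMPA receptor genes are shown by the stretch of sequence that holds their best-known functional difference. The glutamine codon at the Q/R site of the pore sets calcium permeability: in Gria2 transcripts this codon is normally edited to one read as arginine, which makes channels that contain GluA2 nearly impermeable to calcium. The 51 bases around the site in each gene, from GENCODE vM21 transcripts on GRCm38, are given with the genome-encoded codon in capitals.
Gria1 (chr11:57243058-57243108, plus strand, exon 11 of 16): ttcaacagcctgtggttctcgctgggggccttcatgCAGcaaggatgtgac
Gria2 (chr3:80706899-80706949, minus strand, exon 11 of 16): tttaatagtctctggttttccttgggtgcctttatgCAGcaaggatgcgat
Gria3 (chrX:41610229-41610279, plus strand, exon 11 of 16): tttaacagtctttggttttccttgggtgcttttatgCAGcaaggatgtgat
Gria4 (chr9:4464125-4464175, minus strand, exon 12 of 17): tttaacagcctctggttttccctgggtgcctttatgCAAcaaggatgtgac
Of the 51 bases, 47 in Gria3, 45 in Gria4 and 40 in Gria1 were identical to Gria2. The codon is residue 607 of GluA2, counted from the start methionine. Editing itself was not measured in these data, and what follows is the level of the 4 transcripts.

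Of the 42 members, 34 reached 10 CPM in at least 3 of the class sums and were tested. The other 8 were the GABA-A subunits Gabra6, Gabrd, Gabre, Gabrp, Gabrr1, Gabrr2 and Gabrr3 and the glycine receptor subunit Glra4, whose corrected counts over all cholinergic nuclei totalled from 3 for Gabra6 to 446 for Glra4. Low totals hid a pattern in some of them. Gabrd, the delta subunit of extrasynaptic GABA-A receptors, averaged 8.34 CPM in skeletal motor neurons (lowest 6.69, highest 12.9), 0.362 CPM in visceral motor neurons and 0.984 CPM in interneurons, and its highest clusters were S1 at 22.9 CPM and I8 at 17.1 CPM. Gabre, the epsilon subunit, was highest in V7 at 14.0 CPM and V2 at 8.58 CPM.

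**Figure D1:**
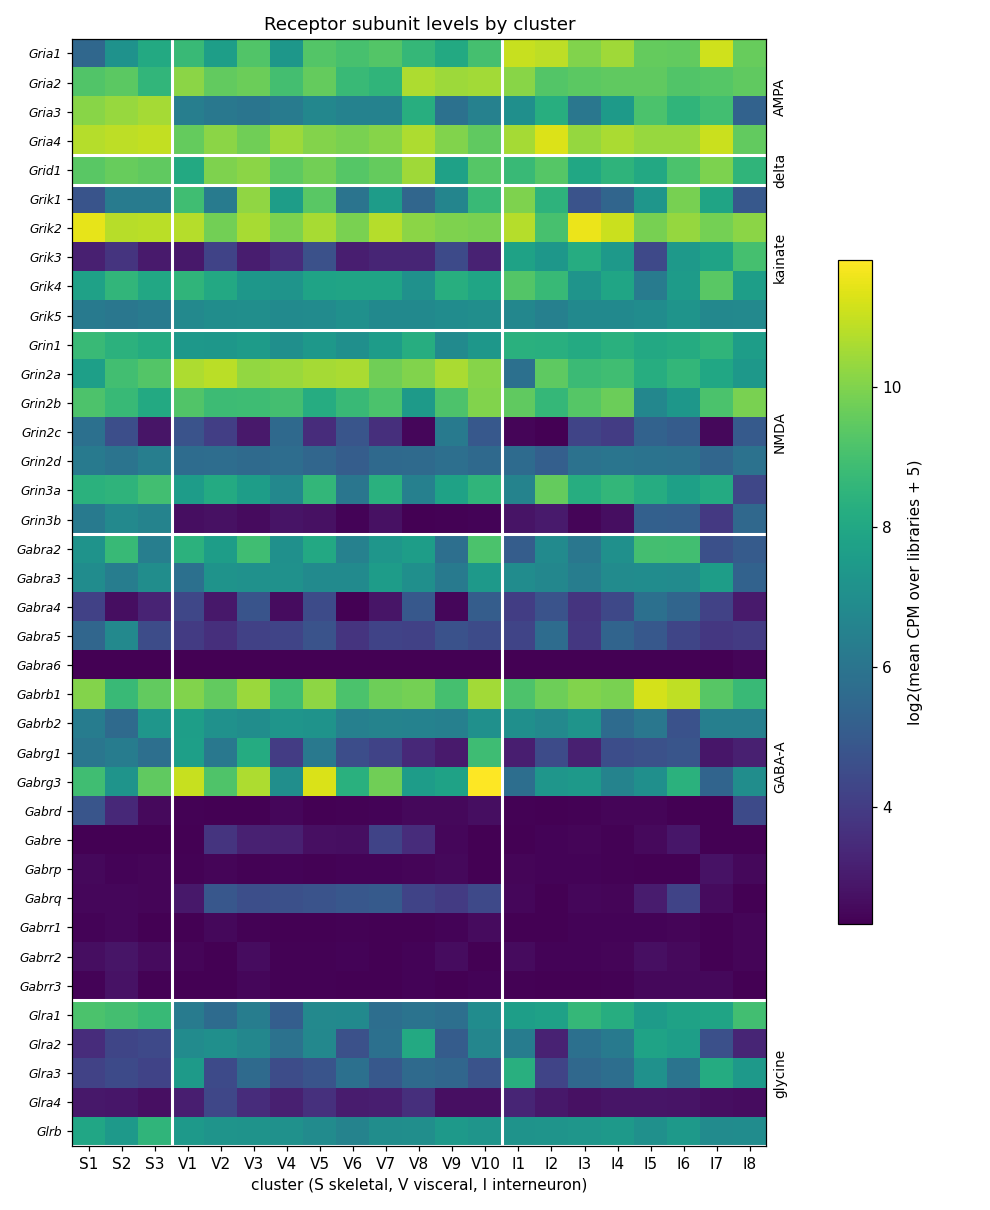
Mean level of 38 subunit genes (rows, grouped by receptor family) in each of the 21 clusters (columns), as the base 2 logarithm of the mean CPM over libraries plus 5. Gria3 is brightest in the 3 S columns, Grin2a in the V columns and Grik3 in the I columns, and 8 rows, Gabra6 among them, stay dark nearly throughout.

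Skeletal motor neurons differed from visceral motor neurons at most of these genes. A log2 difference here is on the log2(CPM + 5) scale, which understates changes of low genes, and a member is called when its adjusted p in limma is under 0.05 and its log2 difference is at least 1 either way. Of the 34 members tested, 11 were higher in skeletal motor neurons at that adjusted p, where 30.1% of 11292 genes were, and 17 were lower, where 36.7% were. Called were 5 higher members (6.22% of all genes) and 8 lower members (5.59%). The median absolute log2 difference was 0.77 over the members and 0.27 over all genes tested. Skeletal motor neurons against interneurons gave 16 higher (31.7% of all genes) and 15 lower members (27.8%), of which 4 (5.69%) and 6 (4.96%) were called. Visceral motor neurons against interneurons gave 11 higher (31.4%) and 14 lower members (19.9%), of which 4 (3.95%) and 6 (3.8%) were called. Every called member in these 3 comparisons went the same way in 9 of 9 libraries. In the 4 libraries of lower Malat1 alone 14, 11 and 9 members were called in the 3 comparisons, and in the other 5 libraries 14, 10 and 10. The classes had been drawn by the authors from the expression of the same nuclei, so these tests describe how the labelled groups differ.

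The AMPA receptor subunits divided the 3 classes by identity more than by presence. Gria3 (GluA3) lay between 906 and 1667 CPM in the 9 skeletal sums (median 1220), between 38.6 and 222 CPM in the visceral sums (median 84.6) and between 165 and 336 CPM in the interneuron sums (median 213). The skeletal range lay far above the other 2, and the visceral and interneuron ranges overlapped. The log2 difference was 3.90 ± 0.19 (SE, adjusted p = 1.82e-13) against visceral motor neurons and 2.44 ± 0.19 (adjusted p = 5.01e-10) against interneurons, and Gria3 was lower in visceral motor neurons than in interneurons by -1.46 ± 0.19 (adjusted p = 1.92e-06). Gria1 (GluA1) ran the other way. Its lowest, median and highest levels were 87.2, 142 and 297 CPM in skeletal motor neurons, 307, 348 and 709 CPM in visceral motor neurons and 1094, 1456 and 1696 CPM in interneurons. No 2 of these ranges overlapped. Skeletal motor neurons were lower by -1.40 ± 0.13 (adjusted p = 5.98e-09) than visceral motor neurons and by -3.13 ± 0.13 (adjusted p = 1.57e-14) than interneurons, and visceral motor neurons were lower than interneurons by -1.73 ± 0.13 (adjusted p = 4.51e-10).

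Gria2 (GluA2), the subunit that limits calcium entry, was lowest in skeletal motor neurons, with 523 ± 71.4 CPM (SD, n = 9) against 857 ± 107 in visceral motor neurons and 774 ± 68.5 in interneurons. The log2 differences of -0.71 and -0.57 passed the test without reaching the size of a call, and visceral motor neurons and interneurons did not differ past the threshold (0.14). Gria4 (GluA4) averaged 1858, 1069 and 1547 CPM in the 3 classes. As a share of the AMPA transcripts, Gria2 was 14.0% ± 3.0 (SD, n = 9) in skeletal motor neurons, 35.3% ± 5.5 in visceral motor neurons and 19.8% ± 3.3 in interneurons. Gria3 took 33.7% ± 3.3 in skeletal motor neurons but 3.6% ± 1.8 and 5.9% ± 0.8 in the other classes, and Gria1 took 4.3% ± 1.4, 18.1% ± 6.2 and 35.6% ± 2.5. Over the clusters the Gria2 share went from 9.46% ± 2.1 in S3 to 52.2% ± 8.6 in V10. Gria1 was highest in I7 (2241 CPM) and I1 (2053 CPM) and lowest in S1 (40.5 CPM). Gria2 was highest in V8 (1583 CPM) and lowest in V7 (362 CPM), Gria3 highest in S3 (1466 CPM) and lowest in I8 (34.6 CPM), and Gria4 highest in I2 (2561 CPM) and lowest in V10 (714 CPM).

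Among the kainate receptor genes, Grik3 (GluK3) marked interneurons. Its 9 interneuron sums lay between 159.5 and 227 CPM (median 205), against 1.18 to 6.24 CPM (median 4.41) in skeletal and 1.41 to 15.5 CPM (median 6.1) in visceral motor neurons. The interneuron range stood clear of both. The log2 difference was -4.50 ± 0.15 (adjusted p = 3.05e-16) for skeletal motor neurons against interneurons and -4.19 ± 0.15 (adjusted p = 1.30e-15) for visceral motor neurons, which were not distinguished from skeletal motor neurons (-0.31). Cluster I8 held the highest Grik3 level, 506 ± 39.8 CPM, above the next cluster, I3 at 292 CPM, in all the libraries they shared. Grik1 (GluK1) was low in skeletal motor neurons, at 29.2, 50.1 and 129 CPM (lowest, median, highest), against 162, 298 and 691 CPM in visceral motor neurons and 324, 445 and 612 CPM in interneurons. The skeletal range overlapped neither of the others. Its log2 differences were -2.58 ± 0.21 (adjusted p = 7.10e-10) and -2.96 ± 0.21 (adjusted p = 9.09e-11).

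The remaining kainate genes varied less by class. Grik2 (GluK2) averaged 2064, 1281 and 1529 CPM in skeletal, visceral and interneuron sums and made up 83.5%, 63.6% and 57.7% of the kainate transcripts. Grik4 averaged 273, 225 and 334 CPM, and Grik5 68.8, 115 and 107 CPM; these encode the high-affinity subunits, which need a GluK1 to GluK3 partner to form channels. By cluster, Grik1 was highest in V3 (1196 CPM) and I1 (997 CPM) and lowest in I3 (21.6 CPM). Grik2 was highest in I3 (2937 CPM) and S1 (2801 CPM) and lowest in I2 (521 CPM). Grik4 was highest in I7 (655 CPM) and lowest in I5 (72.3 CPM), and Grik5 went only from 62.0 CPM in S2 to 146 CPM in I6.

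Of the delta receptor genes, which bind cerebellins across the synapse, Grid1 averaged 717, 793 and 425 CPM in the 3 classes. It was not distinguished between skeletal and visceral motor neurons (-0.06) and was higher than in interneurons in both, by 0.76 and 0.82 on the log2 scale, without reaching the size of a call. Grid1 had its highest level in V8 (1404 CPM, 3 libraries) and its lowest in V9 (208 CPM, 6 libraries).

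**Figure D2:**
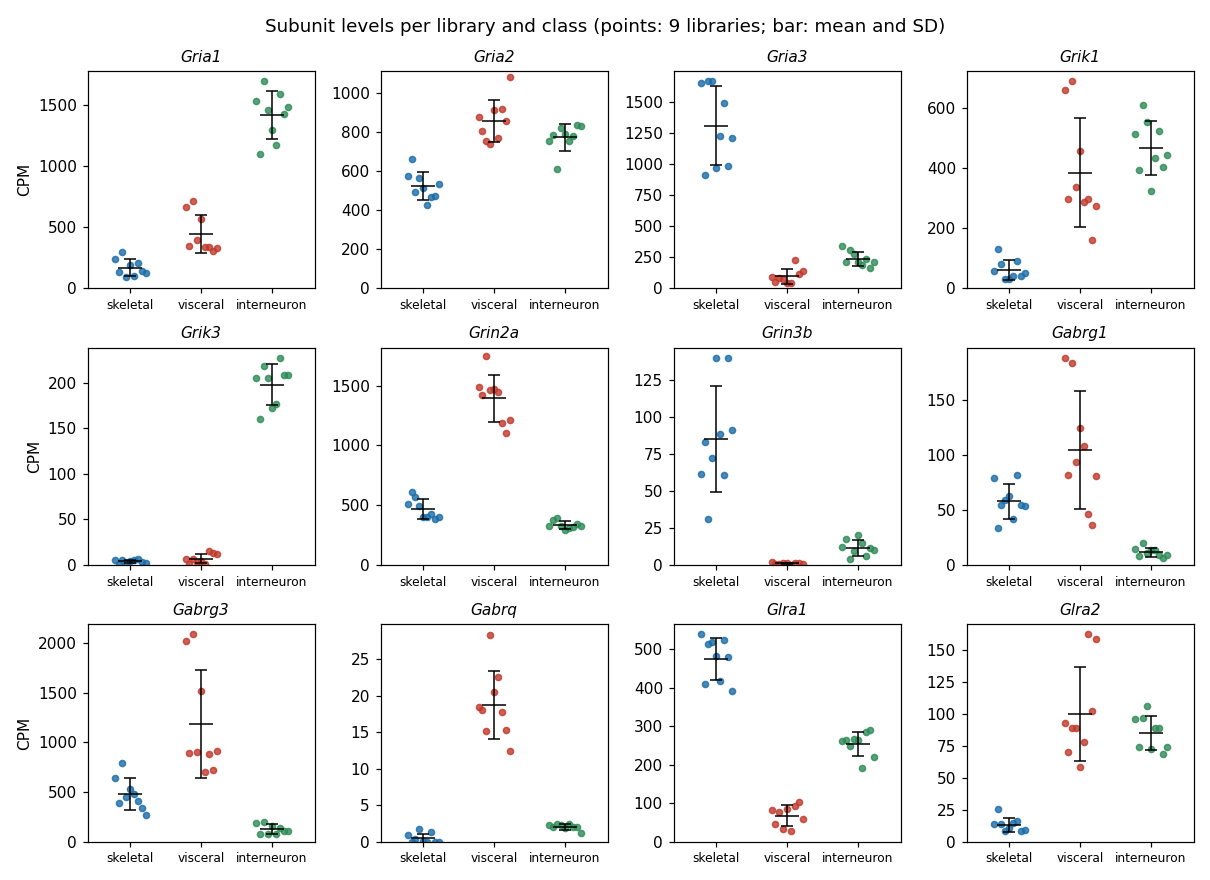
Level in CPM (vertical axis, from 0) of 12 subunit genes in skeletal and visceral motor neurons and in interneurons. Points are the 9 libraries and the black bar is their mean and SD. Gria3, Grin3b and Glra1 are highest in skeletal motor neurons, Grin2a and Gabrq in visceral motor neurons, and Gria1 and Grik3 in interneurons.

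The NMDA receptor genes separated visceral motor neurons by Grin2a and skeletal motor neurons by Grin3b. Grin2a (GluN2A) ran from 1105 to 1746 CPM (median 1448) in visceral motor neurons, against 381 to 612 CPM (median 427) in skeletal motor neurons and 294 to 390.5 CPM (median 325) in interneurons. The visceral range lay above both of the others. It was lower in skeletal motor neurons by -1.58 ± 0.06 (adjusted p = 4.44e-15) and higher in visceral motor neurons than in interneurons by 2.04 ± 0.06 (adjusted p = 1.48e-16). Grin2b (GluN2B) averaged 399 ± 42.7, 459.7 ± 128 and 532 ± 60.5 CPM and differed by less than the size of a call in each comparison. Grin2a made up 73.1% ± 3.5 of GluN2 transcripts in visceral motor neurons, 48.6% ± 4.2 in skeletal motor neurons and 36.1% ± 3.1 in interneurons. Across clusters the Grin2a share went from 6.25% ± 2.4 in I1 to 82.6% ± 1.8 in V8, and the Grin2b share from 13.9% in V8 to 88.1% ± 3.3 in I1.

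Grin3b (GluN3B), a subunit known for its expression in motor neurons, was highest in the skeletal class. It lay between 31.3 and 140.0 CPM (median 83.3) in skeletal motor neurons, between 0 and 1.90 CPM (median 1.09) in visceral motor neurons and between 3.75 and 20.5 CPM (median 11.7) in interneurons. The skeletal range did not meet the others. The log2 difference was 3.80 ± 0.15 (adjusted p = 4.79e-15) against visceral motor neurons and 2.40 ± 0.15 (adjusted p = 1.17e-11) against interneurons, and it was lower in visceral motor neurons than in interneurons by -1.40 ± 0.15 (adjusted p = 9.67e-08). Its highest clusters were S2 (105 CPM), S3 (90.2 CPM) and S1 (67.7 CPM), and 6 of the 21 clusters reached 10 CPM. Grin3a (GluN3A) averaged 403, 202 and 293 CPM in the 3 classes, with its highest level in I2 (747 CPM) and its lowest in I8 (15.3 CPM).

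Grin1, the obligatory GluN1 subunit, was at 303, 338 and 351 CPM (lowest, median, highest) in skeletal motor neurons, 123, 159 and 234 CPM in visceral motor neurons and 263, 290.1 and 341 CPM in interneurons. Visceral motor neurons were the lowest of the 3 classes in Grin1 and the highest in Grin2a, with log2 differences in Grin1 of 0.98 for skeletal against visceral motor neurons and -0.81 for visceral motor neurons against interneurons, both past the test. Grin2d averaged 69.6, 44.8 and 49.2 CPM. Grin2c averaged 20.1, 18.0 and 12.2 CPM and did not pass between classes, yet by cluster it went from 0 CPM in I2 to 70.6 CPM in V9, 51.7 CPM in S1 and 41.8 CPM in V4. By cluster, Grin1 was highest in S1 (425 CPM) and lowest in V9 (113 CPM), Grin2b highest in V10 (1021 CPM) and lowest in I5 (101 CPM), and Grin2d highest in S3 (78.1 CPM) and lowest in V6 (30.1 CPM).

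Of the GABA-A receptor genes, the gamma subunits showed the widest class differences. Gabrg3 (gamma 3) had lowest, median and highest levels of 274, 449.9 and 795 CPM in skeletal motor neurons, 701, 908 and 2088 CPM in visceral motor neurons and 77.2, 114 and 203 CPM in interneurons. The skeletal and visceral ranges overlapped, and both lay above the interneuron range. Its log2 differences were 3.13 ± 0.11 (adjusted p = 1.79e-15) for visceral motor neurons and 1.88 ± 0.11 (adjusted p = 4.60e-12) for skeletal motor neurons, each against interneurons, and -1.25 ± 0.11 (adjusted p = 3e-09) for skeletal against visceral motor neurons. Gabrg1 (gamma 1) was likewise lowest in interneurons, at 6.27 to 19.9 CPM (median 11.1), against 33.4 to 81.4 CPM (median 54.4) in skeletal and 36.2 to 188 CPM (median 93.3) in visceral motor neurons. The interneuron range stood below both, by 1.91 ± 0.18 (adjusted p = 7.75e-09) and 2.60 ± 0.18 (adjusted p = 9.65e-11) on the log2 scale. Gabrg3 made up 58.4% of gamma transcripts in interneurons, 73.0% in skeletal and 83.1% in visceral motor neurons.

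Both motor neuron genes of this group peaked in V10, where Gabrg3 reached 3578 ± 874 CPM and Gabrg1 466 ± 162 CPM over the 7 libraries with enough nuclei. Next came V5 (2445 CPM) and V1 (2083 CPM) for Gabrg3 and V3 (284 CPM) for Gabrg1, and I7 was lowest for both, at 36.6 and 2.51 CPM. The Gabrg3 share of gamma transcripts went from 23.5% in I7 to 90.1% in V5.

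Gabrq, the theta subunit, was a low gene with a sharp class pattern. It lay between 12.4 and 28.4 CPM (median 18.1) in visceral motor neurons, between 0 and 1.70 CPM (median 0.157) in skeletal motor neurons and between 1.14 and 2.43 CPM (median 2.09) in interneurons. The visceral range did not meet the others, with log2 differences of -2.10 ± 0.08 (adjusted p = 1.41e-15) for skeletal against visceral motor neurons and 1.73 ± 0.08 (adjusted p = 6.13e-14) for visceral motor neurons against interneurons. Only the visceral sums reached 10 CPM, so Gabrq entered the test through the class where it was high. Its p-values are therefore no separate support for the pattern. By cluster the same gene was uneven. It was highest in V7 (27.4 CPM) and V2 (25.2 CPM) and at 0 in I8. V7 and V2 were also the highest clusters of Gabre.

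The alpha subunits set the agonist and benzodiazepine sensitivity of GABA-A receptors. Gabra5 (alpha 5) lay between 23.7 and 83.2 CPM (median 46.0) in skeletal and between 10.9 and 16.9 CPM (median 12.4) in visceral motor neurons, without overlap (log2 difference 1.51 ± 0.13, adjusted p = 2.21e-09), with interneurons between them at 22.5 ± 4.89 CPM. Gabra4 (alpha 4) was at 2.71 to 10.1 CPM (median 6.92) in skeletal motor neurons and at 14.5 to 26.0 CPM (median 19.4) in interneurons, again apart (-1.18 ± 0.13, adjusted p = 6.06e-08). Gabra2 (alpha 2) averaged 186 ± 75.1, 247 ± 70.3 and 165 ± 33.8 CPM, and Gabra3 (alpha 3) 106, 121 and 105 CPM. Gabra2 made up 50.4%, 57.7% and 49.7% of the alpha transcripts in the 3 classes.

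By cluster the alpha subunits varied far more than by class. The Gabra2 share went from 8.02% in I7 to 77.6% in V1, while the Gabra3 share went from 11.8% in V1 to 74.4% in I7. Gabra2 was highest in V10 (557 ± 136 CPM) and I5 (497 CPM) and lowest in I7 (19.7 CPM), Gabra3 highest in I7 (187 CPM) and lowest in I8 (34.2 CPM). Gabra4 was highest in I5 (52.0 ± 19.2 CPM) and lowest in V6 (0.106 CPM), and Gabra5 highest in S2 (106 CPM) and lowest in V2 (7.19 CPM).

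The beta subunits Gabrb1 and Gabrb2, which form the GABA-binding interface with alpha subunits, were not called between classes. Gabrb1 averaged 729, 902 and 1072 CPM and Gabrb2 102, 124 and 91.8 CPM. Gabrb1 was highest in I5 (2327 ± 511 CPM) and I6 (1912 CPM) and lowest in S2 (426 CPM), so that its share of beta transcripts went from 35.4% in S2 to 74.3% in I5. Gabrb2 was highest in V1 (195 CPM) and lowest in I6 (21 CPM). Of these genes, Gabra4 (chr5:71569749-71658308, minus strand) and Gabrb1 (chr5:71658113-72149037, plus strand) overlap at their starts on GRCm38, and Gabra5 also shares part of its span with a gene on the opposite strand. Whether counting used the strand was not given in the sources used here, so reads of Gabra4 and Gabra5 are uncertain to that extent.

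**Figure D3:**
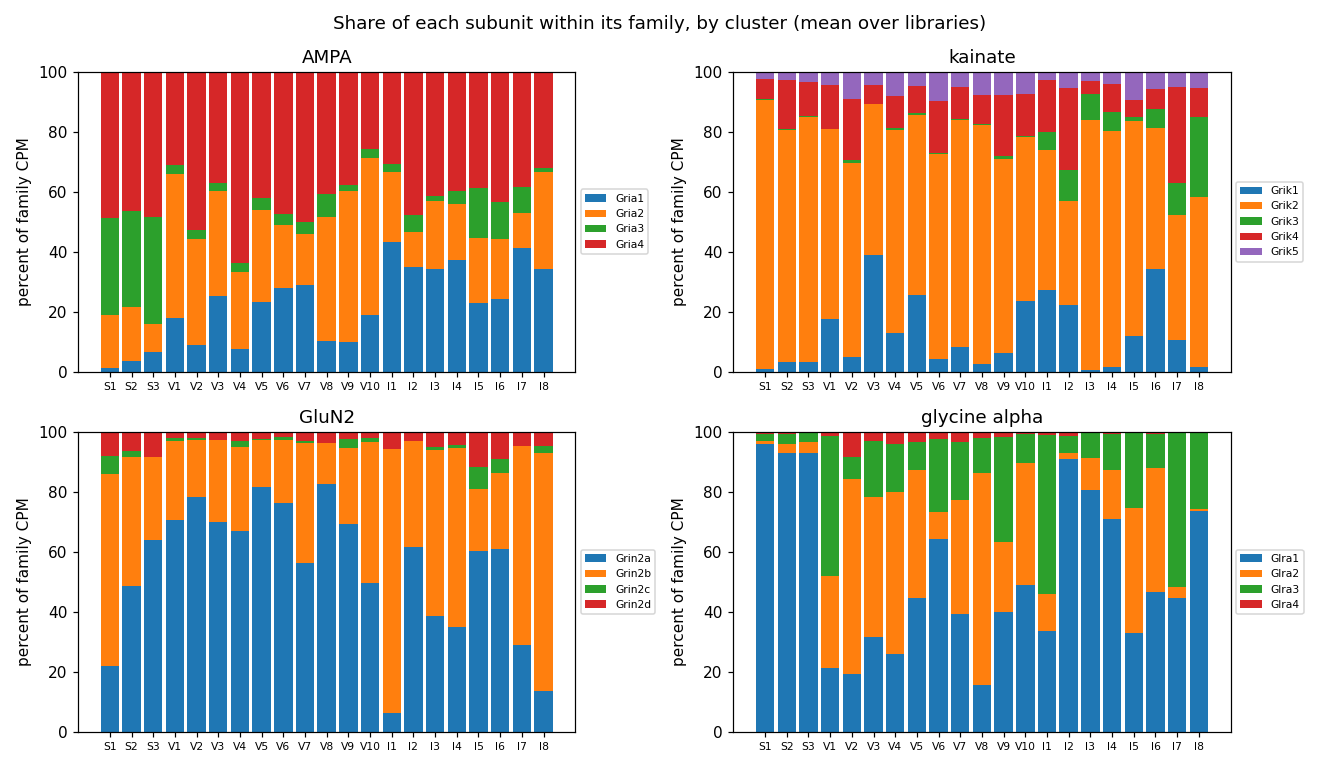
Share of each subunit in the summed CPM of its family (vertical axis, percent, mean over libraries) in each of the 21 clusters (horizontal axis), for 4 families. Gria3 takes a large share only in S1 to S3, Grin2a most of the GluN2 share in most V clusters, and Glra1 nearly all of the glycine receptor alpha share in S1 to S3.

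The glycine receptor alpha subunits separated skeletal motor neurons from both other classes. Glra1, the adult alpha 1 subunit mutated in startle disease, lay between 391 and 538 CPM (median 481) in skeletal motor neurons, between 26.8 and 103 CPM (median 77.1) in visceral motor neurons and between 191 and 289 CPM (median 264) in interneurons. The 3 ranges did not meet. The log2 difference was 2.83 ± 0.14 (adjusted p = 9.08e-14) for skeletal against visceral motor neurons and -1.94 ± 0.14 (adjusted p = 9.56e-11) for visceral motor neurons against interneurons, and 0.89 for skeletal motor neurons against interneurons, which passed without being called.

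Glra2, which predominates before birth in many regions, and Glra3 ran the other way. Glra2 was at 8.14, 13.9 and 25.5 CPM (lowest, median, highest) in skeletal motor neurons, 58.2, 88.9 and 162 CPM in visceral motor neurons and 68.8, 88.8 and 106 CPM in interneurons, with the skeletal range below the others by -2.49 ± 0.16 (adjusted p = 1.73e-11) and -2.32 ± 0.16 (adjusted p = 6.64e-11) on the log2 scale. Glra3 was at 9.16 to 24.4 CPM (median 11.2) in skeletal motor neurons, 35.4 to 87.5 CPM (median 46.6) in visceral motor neurons and 105 to 180.2 CPM (median 128) in interneurons. No ranges overlapped, and its log2 differences were -1.54 ± 0.14 (adjusted p = 5.60e-09), -2.86 ± 0.14 (adjusted p = 2.84e-13) and, for visceral motor neurons against interneurons, -1.32 ± 0.14 (adjusted p = 1.16e-07). Glra1 thus made up 94.0% ± 2.4 of the glycine receptor alpha transcripts in skeletal motor neurons, 29.3% ± 8.6 in visceral motor neurons and 53.4% ± 4.8 in interneurons.

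Glrb, the shared beta subunit, lay between 218 and 332 CPM (median 273) in skeletal and between 104 and 164 CPM (median 131) in visceral motor neurons, without overlap (1.01 ± 0.06, adjusted p = 9.49e-13), and averaged 146 ± 19.8 CPM in interneurons. Over the clusters Glra1 was highest in S1 (548 CPM) and lowest in V4 (30.7 CPM). Glra2 was highest in V8 (265 CPM, 3 libraries) and I5 (224 CPM) and lowest in I2 (4.36 CPM), and Glra3 highest in I1 (314 CPM) and lowest in S1 (13.2 CPM). Glrb was highest in S3 (367 CPM) and lowest in V6 (90.2 CPM). The glycine receptor genes together were 25.1%, 9.5% and 20.5% of the inhibitory receptor transcripts in skeletal, visceral and interneuron sums, and the inhibitory members were 23.7%, 27.2% and 22.9% of all members. By cluster the inhibitory share went from 12.5% ± 1.3 in V9 to 42.0% ± 2.6 in V10.

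Within skeletal motor neurons, alpha (S2), gamma (S3) and Type 3 (S1) neurons differed in members of every family but the delta receptors at the size of a call, most of them GABA-A and NMDA subunits. S2 against S3 gave 13 higher members of 34 tested (17.6% of 11465 genes) and 13 lower members (13.5%), of which 3 higher (4.83%) and 3 lower (3.29%) were called. S2 against S1 gave 12 higher (13.1%) and 14 lower members (12.3%), with 5 (3.24%) and 6 (2%) called, and S1 against S3 gave 13 higher (11.1%) and 11 lower members (8.69%), with 3 (2.75%) and 4 (2.58%) called. The called counts were 8, 11 and 8 in the 4 libraries of lower Malat1 and 7, 9 and 6 in the other 5. The S2 sum was small in some libraries, with 26 to 395 nuclei.

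Alpha motor neurons carried the most Gabra2 and Gabra5. Gabra2 was at 190.4 to 605 CPM (median 393) in S2, 34.4 to 124 CPM (median 73.2) in S3 and 108 to 210.1 CPM (median 119) in S1, so that S2 stood clear of S3 (2.37 ± 0.13, adjusted p = 6.42e-14) and overlapped S1 (1.5 ± 0.13, adjusted p = 8.18e-10). Gabra5 was at 45.3 to 167 CPM (median 101) in S2, 10.5 to 30.6 CPM (median 17.3) in S3 and 28.6 to 47.3 CPM (median 40.4) in S1, with the same pattern of overlap (2.23 ± 0.16, adjusted p = 2.34e-11, and 1.28 ± 0.16, adjusted p = 8.37e-07). Gabra2 was 67.8% ± 8.9 of alpha transcripts in S2 and 32.8% in S3, where Gabra3 took 53.4%. Without the libraries labelled cervical and thoracic replicate 2 the S2 against S3 differences were 2.37 for Gabra2 and 2.22 for Gabra5.

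Gamma motor neurons carried the most Gabrb2 and Glrb, and alpha motor neurons the least Gabrg3. Gabrb2 was at 110.3 to 200.3 CPM (median 159) in S3, 19.1 to 97.2 CPM (median 35.5) in S2 and 51.0 to 109 CPM (median 69.4) in S1. The S3 range lay above both, by 1.80 ± 0.16 against S2 (adjusted p = 8.04e-10) and 1.02 ± 0.16 against S1 (adjusted p = 1.63e-05) as absolute log2 differences. Gabrg3 was at 453 to 1145 CPM (median 624) in S3, 32.4 to 253 CPM (median 189.8) in S2 and 168 to 882 CPM (median 457) in S1. S2 was below S3 without overlap (-2.48 ± 0.28, adjusted p = 9.30e-08) and below S1 with overlap (-1.75 ± 0.28, adjusted p = 3e-05, 8 of 9 libraries). S1 and S3 were not distinguished by the test (-0.73), although S1 was lower than S3 in 9 of 9 libraries. Glrb was at 323 to 405 CPM in S3 (median 354) against 130.2 to 222 CPM in S2 (median 149.7), without overlap (-1.14 ± 0.07, adjusted p = 1.42e-12), and 192 to 292 CPM in S1.

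Gabrd separated Type 3 neurons from both other types. It was at 14.2 to 30.2 CPM (median 23.2) in S1, 2.42 to 9.27 CPM in S2 (median 4.97) and 0 to 2.63 CPM in S3 (median 0.600), with S1 above both (2.24 ± 0.16 against S3, adjusted p = 2.41e-11; S2 against S1 -1.42 ± 0.16, adjusted p = 1.43e-07). Only the S1 sums of Gabrd reached 10 CPM, so it entered the test through the type where it was high. Its p-values are therefore no separate support for the pattern. Relative to S1, S2 was also lower in Gabra4 (-1.41 ± 0.14, adjusted p = 1.28e-08) and Gabrb1 (-1.28 ± 0.09, adjusted p = 3.53e-11), each without overlap, and neither was called for S1 against S3. Gabra4 likewise stayed below 10 CPM in every S2 and S3 sum, so it too entered the test through S1 alone. Gabrb1 was at 682 to 1502 CPM in S1 and at 267 to 615 CPM in S2.

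Grin2c was highest in S1 and lowest in S3. In S1, S2 and S3 it was at 28.8 to 74.5 CPM (median 49.6), 0.981 to 39.6 CPM (median 17.2) and 0 to 4.39 CPM (median 2.15). S1 and S3 did not overlap (2.95 ± 0.26, adjusted p = 9.24e-10), and S2 overlapped both (1.57 ± 0.26 against S3, adjusted p = 2.22e-05, and -1.38 ± 0.26 against S1, adjusted p = 1.62e-04). Grin2b was at 499.5 to 696 CPM in S1, 354 to 555 CPM in S2 and 220.3 to 328 CPM in S3, with S1 above S3 (1.09 ± 0.06, adjusted p = 4.02e-13). Grin2a ran against this, at 85.9 to 284 CPM (median 228) in S1, 303 to 797 CPM (median 479) in S2 and 537 to 749 CPM (median 592) in S3, with S1 below S3 by -1.68 ± 0.14 (adjusted p = 2.34e-10) and S2 above S1 by 1.30 ± 0.14 (adjusted p = 3.43e-08). The S1 range of Grin2a lay below both of the others.

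Gria1 was lowest in S1, at 6.72 to 87.0 CPM (median 37.3), against 61.6 to 235 CPM (median 93.0) in S2 and 119 to 490.4 CPM (median 217) in S3. S1 and S3 did not overlap (-2.65 ± 0.22, adjusted p = 5.05e-10), while S2 overlapped S1 (1.72 ± 0.22, adjusted p = 1.14e-06). Grik1 was called at 1.06 ± 0.40 (adjusted p = 0.0499) for S2 against S1 and at -1.62 ± 0.40 (adjusted p = 3.14e-03) for S1 against S3, both with overlap. The first call lay at the threshold, and its adjusted p missed 0.05 in 9 of 14 alternatives. It was 1.22 (adjusted p = 0.174) without replicate 1 and 0.39 (adjusted p = 0.309) without replicate 2. S2 Grik1 was 289.5 CPM in the library labelled cervical replicate 2, which also carried the markers of other classes given above, against at most 105 CPM in the others. Without that library and thoracic replicate 2 the difference was 0.62 (adjusted p = 0.0936). The Grik1 difference of S1 against S3 was -1.64 (adjusted p = 0.066) without replicate 1.

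**Figure D4:**
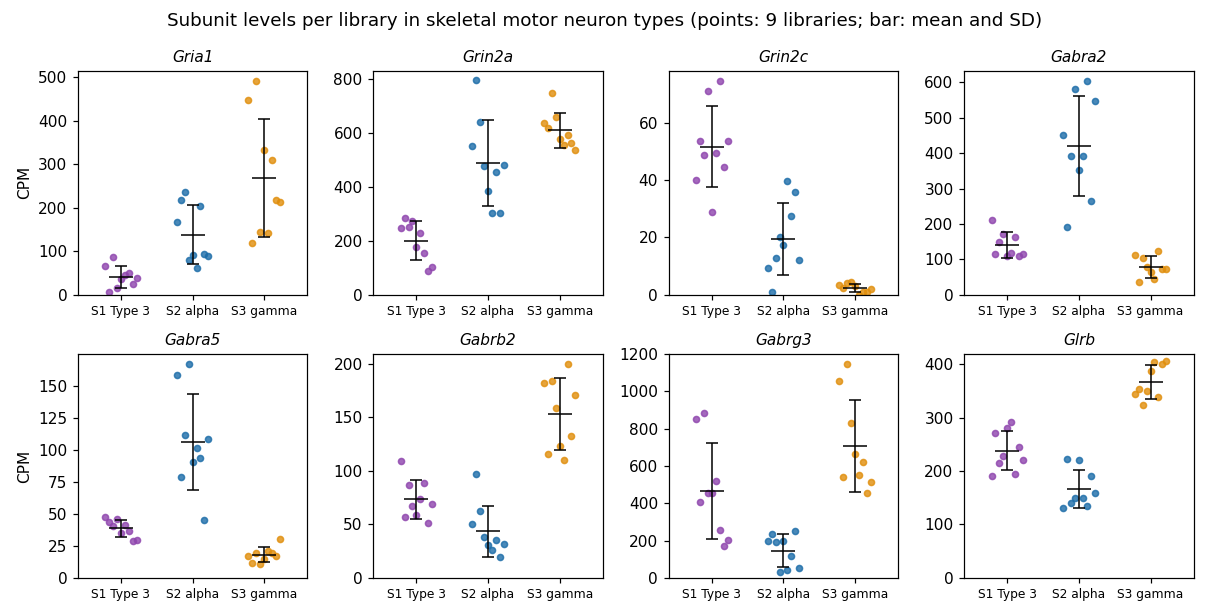
Level in CPM (vertical axis, from 0) of 8 subunit genes in Type 3 (S1), alpha (S2) and gamma (S3) motor neurons. Points are the 9 libraries and the black bar is their mean and SD. Gabra2 and Gabra5 are highest in S2, Gabrb2 and Glrb in S3, and Grin2c in S1.

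Along the cord, no member passed the test within a class in the clusters present in all libraries. The authors normalised each region apart, so a region and its normalisation cannot be told apart in the comparisons along the cord. To keep the mix of clusters out of this comparison, each library was given the mean of log2(CPM + 5) over the clusters present in all libraries (S1 to S3; V1, V2, V3, V4 and V7; I1 to I6). Cluster V8, left out by this rule, held 225, 116 and 122 nuclei in the lumbar/sacral libraries and at most 3 in any other. Lumbar/sacral against cervical and thoracic libraries together gave 0 members past an adjusted p of 0.05 in limma in each class, with 3, 11 and 2 members at an unadjusted p under 0.05 in skeletal and visceral motor neurons and in interneurons, where 5.1%, 7.13% and 2.16% of all genes had one. Over all genes 1 of 11465 (0.00872%) passed in skeletal motor neurons and 1 of 12301 (0.00813%) in interneurons. In the visceral class 66 of 12418 genes passed, 0.362% as higher and 0.169% as lower. With the pool as a replicate block, Grin2b (-0.53 ± 0.08, adjusted p = 0.0122) and Grin2a (-0.55 ± 0.11, adjusted p = 0.0421) passed in visceral motor neurons. Over all visceral nuclei, whatever their cluster, Gria3 (1.34), Grik3 (1.11), Grid1 (0.99), Grin1 (0.54), Grin2b (-0.87) and Grin2c (-1.78) passed. That setting lets the mix of clusters enter. Cervical against thoracic libraries gave 0 members and 0 genes in each class, with 5, 0 and 1 members at an unadjusted p under 0.05 (6.93%, 0.781% and 2.12% of all genes), in libraries of which 1 in each region went against its label.

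The lumbar/sacral difference did depend on the class for some members. In the difference of skeletal minus visceral motor neurons 2 members passed as higher (1.17% of 13184 genes) and 5 as lower (1.3%). In visceral motor neurons minus interneurons 4 passed as higher (1.78% of 13421 genes) and 7 as lower (1.66%), and in skeletal motor neurons minus interneurons 0 passed, where 0.262% of 12963 genes passed as higher and 0.386% as lower and 11 members had an unadjusted p under 0.05 (8.8% of all genes). With the replicate block Gabrg3 passed in the last comparison (-0.72 ± 0.12, adjusted p = 4.31e-03).

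The lumbar/sacral difference of Glra1 differed between visceral motor neurons and both other classes. Its cluster-balanced visceral level was 50.8, 22.9 and 48.1 CPM in the libraries labelled cervical 1 to 3, 21, 42.4 and 14.9 CPM in those labelled thoracic 1 to 3, and 100.6, 87.1 and 44.4 CPM in lumbar/sacral 1 to 3. The third lumbar/sacral library lay within the range of the other regions. In interneurons the corresponding ranges were 184 to 254 CPM and 193 to 263 CPM. The lumbar/sacral difference was lower in skeletal than in visceral motor neurons by -1.18 ± 0.21 (adjusted p = 2.69e-03) and higher in visceral motor neurons than in interneurons by 1.14 ± 0.22 (adjusted p = 3.54e-03). In the 4 libraries of lower Malat1 these values were -1.29 and 1.25, and in the other 5 they were -1.21 and 1.19. By cluster, V2 was at 93.5 to 111 CPM in the 3 lumbar/sacral libraries against 3.79 to 39.0 CPM in the other 6, and V3 at 109 to 169 CPM against 32.4 to 71.7 CPM, both without overlap. V1, V4 and V7 overlapped, and V7 showed a log2 difference of -0.05. Over all nuclei of a class, whatever their cluster, both Glra1 differences missed the threshold (-0.63, adjusted p = 0.178, and 0.50, adjusted p = 0.246).

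The NMDA subunits Grin2b and Grin2c ran the other way. Visceral Grin2b was between 526 and 609 CPM in the 6 cervical and thoracic libraries and at 357, 396 and 399.5 CPM in the lumbar/sacral libraries, without overlap. Its lumbar/sacral difference was higher in skeletal than in visceral motor neurons by 0.53 (adjusted p = 2.74e-03) and lower in visceral motor neurons than in interneurons by -0.63 (adjusted p = 2.97e-04). The difference lay in V2, at 204 to 238 CPM against 467 to 640.1 CPM, in V3, at 258 to 309 CPM against 503 to 605 CPM, and in V4, at 343 to 425 CPM against 449 to 691 CPM, each without overlap. V1 and V7 overlapped. Visceral Grin2c was at 1.78, 3.14 and 3.60 CPM in the lumbar/sacral libraries and between 7.43 and 31.9 CPM in the other 6, without overlap, and its difference was 1.54 ± 0.30 (adjusted p = 6.15e-03) for skeletal minus visceral motor neurons and -1.62 ± 0.28 (adjusted p = 1.40e-03) for visceral motor neurons minus interneurons. In V4, the cluster of those balanced with the most Grin2c, it was 5.32 to 13.7 CPM in the lumbar/sacral and 36.7 to 81.9 CPM in the other libraries. Within the libraries of lower and of higher Malat1 the skeletal minus visceral value of Grin2c was 2.05 and 1.22, and without lumbar/sacral replicate 1 it was 1.35 (adjusted p = 0.0567).

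**Figure D5:**
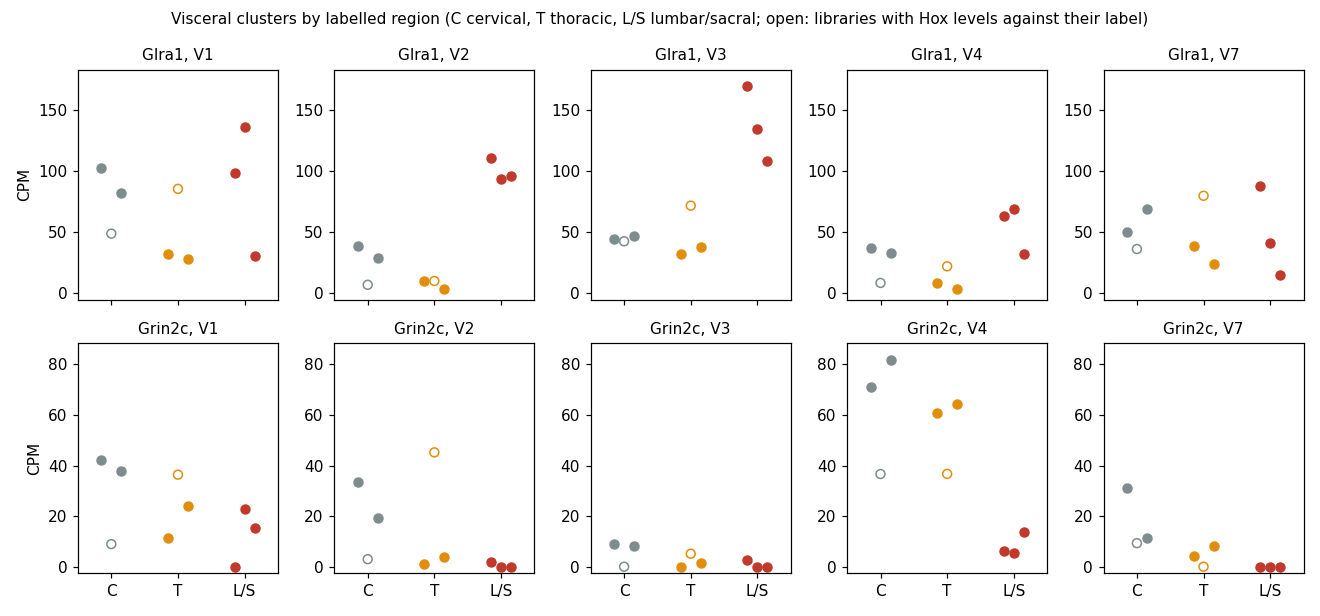
Level in CPM (vertical axis) of Glra1 (top) and Grin2c (bottom) in visceral clusters V1, V2, V3, V4 and V7, by labelled region (horizontal axis), 1 point per library. Open points are the libraries labelled cervical and thoracic replicate 2, whose Hox genes went against their labels. The lumbar/sacral points of Glra1 lie above the others in V2 and V3, and those of Grin2c below the others in V4.

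The other members that passed were smaller or lower. Grik3 in visceral motor neurons was at 8.08 to 9.47 CPM in the lumbar/sacral and 1.57 to 5.02 CPM in the other libraries, and its difference against interneurons was 0.96 (adjusted p = 3.59e-03), which fell to 0.17 (adjusted p = 0.80) with at least 25 nuclei in each sum. In V2 it was at 24.0 to 35.6 CPM against 0 to 15.1 CPM. Gria3 (-0.59), Grid1 (-0.51), Gria4 (-0.41) and Gabrg3 (-0.72) had lower lumbar/sacral differences in skeletal than in visceral motor neurons. Against interneurons, visceral motor neurons had higher lumbar/sacral differences in Gria3 (0.46) and Grid1 (0.40) and lower ones in Gria2 (-0.47), Grik2 (-0.47), Grin2a (-0.43), Glra2 (-0.70) and Gabre (-0.68). The Glra2 value turned to 0.96 (adjusted p = 3.80e-05) and the Gria2 value to 0.11 over all nuclei of a class. The Gabre and Gabrg3 values no longer passed the test under most alternatives. The Glra2 value was -0.38 (adjusted p = 0.211) without lumbar/sacral replicate 1, -0.75 (adjusted p = 0.0848) without lumbar/sacral replicate 2 and -0.68 (adjusted p = 0.0633) without cervical replicate 1. Gria3 against interneurons was 0.40 (adjusted p = 0.129) without lumbar/sacral replicate 1 and 0.46 (adjusted p = 0.0609) without lumbar/sacral replicate 3, and Gria2 was -0.40 (adjusted p = 0.0609) without lumbar/sacral replicate 2. Skeletal minus visceral Grid1 missed the threshold without lumbar/sacral replicate 1 or 2 (-0.48 and -0.46). Grid1 against interneurons missed it without any 1 of cervical 1, cervical 3, thoracic 1 and the 3 lumbar/sacral libraries, at 0.35 to 0.43, and Gria4 without any 1 of cervical 1, cervical 3, thoracic 1, thoracic 2 and lumbar/sacral 1 and 2, at -0.41 to -0.33.

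The male pool was compared with the female pool in the 6 libraries of replicates 2 and 3, where sex and pool cannot be told apart. No member passed in any class by limma, while 3, 2 and 4 members had an unadjusted p under 0.05 in skeletal and visceral motor neurons and in interneurons, where 12.4%, 14.2% and 13.8% of all genes had one. Over all genes 7 of 9660 passed in skeletal motor neurons (0.0414% higher and 0.0311% lower in the male pool), 5 of 9744 in visceral motor neurons (0.0411% and 0.0103%) and 5 of 9594 in interneurons (0.0417% and 0.0104%). Leaving out the library labelled cervical replicate 2 or cervical replicate 3, which leaves 1 cervical library, moved the members passing to 4 and 4 in skeletal motor neurons, 1 and 1 in visceral motor neurons and 4 and 3 in interneurons.

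Some subunits shared their pattern over clusters. Over the means of the 21 clusters, which share libraries, the 561 pairs of the 34 members had a median Pearson r of 0.03. The highest were Gabra4 with Gabrb1 (0.84), whose genes overlap as described, Gabrg1 with Gabrg3 (0.82), Glrb with Grin2d (0.78), Gria3 with Gria4 (0.75), Gria3 with Grin1 (0.75) and Gabra2 with Gabrg1 (0.75). Gabrq with Glra1 was the lowest (-0.81). The 15 pairs whose genes lie within 2 Mb of each other had a median r of 0.43. These are descriptions over clusters and carry no test.

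Genes that act beside the receptors were followed as lists. Of 18 AMPA and kainate receptor auxiliary genes 16 were tested between classes, and 5 were higher and 9 lower in skeletal than in visceral motor neurons at an adjusted p under 0.05, with a median log2 difference of -0.32 against -0.04 over all genes. Of all genes 30.1% were higher and 36.7% lower in this comparison, which is the background for each list. The largest differences were in Cacng4 (-3.65) and Shisa9 (-2.58), lower in skeletal motor neurons, Shisa6 (2.33), higher, and the cornichon Cnih3 (-1.50). The excitatory scaffold genes gave 6 higher and 9 lower of 18 tested (median -0.07), led by Camk2a (-3.42), the alpha subunit of calcium/calmodulin-dependent kinase II, Dlgap1 (1.48), Homer2 (-1.28) and Dlg1 (-1.05). Inhibitory postsynaptic genes gave 4 higher and 7 lower of 13 (median -0.25). Plcl1 (-1.63) and Shisa7 (-1.26) were the largest of these, and gephyrin (Gphn) was higher at 0.50. Of 5 chloride transporter and GABA-B receptor genes, Slc12a5, the chloride extruder KCC2, was higher in skeletal motor neurons (0.68) and the other 4 were lower, Gabbr2 by the most (-1.09).

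Against interneurons, skeletal motor neurons were higher in 3 and lower in 9 of the 16 auxiliary genes, higher in 4 and lower in 10 of the 18 scaffold genes, higher in 2 and lower in 9 of the 13 inhibitory genes and lower in 3 of the 5 chloride and GABA-B genes, where 31.7% of all genes were higher and 27.8% lower. Camk2a (-3.0), Shisa9 (-3.26) and Cacng4 (-2.48) were again among the largest. Visceral motor neurons against interneurons gave 5 higher and 7 lower auxiliary genes, 6 and 9 scaffold genes, 3 and 4 inhibitory genes and 1 and 3 of the chloride and GABA-B genes, beside 31.4% and 19.9% of all genes. For alpha against gamma motor neurons the counts were 3 higher and 4 lower of 13 auxiliary genes, 9 and 4 of 18 scaffold genes, 4 and 2 of 12 inhibitory genes and 0 and 2 of the 5 chloride and GABA-B genes, beside 17.6% and 13.5% of all genes. Plcl1 (2.97), Dlgap2 (2.61), Cacng3 (-2.97) and Gsg1l (-2.53) had the largest differences there. Between lumbar/sacral and the other libraries 0 genes of these lists passed in any class. The 4 cerebellins, partners of the delta receptors, were too low to be tested between classes, at up to 11.8 CPM for Cbln4 in any library and class.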

How the data were processed

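GFP-positive nuclei were profiled with the 10x 3′ v3 chemistry in 9 libraries. Alignment was done by the authors in Cell Ranger 3.1.0, with introns counted through an mm10 pre-mRNA reference, followed by filtering of nuclei and SCTransform normalisation of each region apart in Seurat. The deposited values are the resulting corrected counts, a score rather than raw counts, so no count model was used; clusters and classes are the authors' annotation. DESeq2 is named in the submitters' processing notes and was not used here. No doublet caller was run, and the treatment of doublets was not given in the sources used here.

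Values were summed per library and class or cluster (at least 10 nuclei) and scaled to CPM. limma 3.58.1 in R 4.3.3 was run with a mean-variance trend on log2(CPM + 5), on every gene that reached 10 CPM in 3 or more sums, with Benjamini-Hochberg adjustment over all genes tested and a term for the library in class and type comparisons. Gabrq between classes, and Gabrd and Gabra4 between skeletal types, reached that level only in the group where they were high. The code was tested on simulated data, where more of the called genes were false than the threshold aims at for skeletal against visceral motor neurons, for lumbar/sacral cord in visceral motor neurons and for the difference between these classes along the cord, so calls near the threshold in these comparisons are less certain. Libraries of 1 pool share mice, so p-values measure the spread between libraries, not between animals. Same-numbered libraries deviated together (r from 0.37 to 0.89 over 21 pairs) except for the 6 pairs with cervical replicate 3 (-0.19 to -0.02). Differently numbered pairs ran from -0.79 to 0.57. In skeletal motor neurons cervical replicate 3 reached 0.44 with lumbar/sacral replicate 1, which is also a library of lower Malat1. The pairing itself comes from the shared mice. In each class or type comparison the called members were named, and over clusters the highest and lowest cluster of each. A few members enter the counts and family totals but are not reported here by name. Members and lists were chosen with earlier results of these data known. Coordinates and sequences are from GENCODE vM21, to which all 42 symbols matched. Python 3.11.15, pandas 2.3.3, numpy 2.4.6, scipy 1.17.1 and matplotlib 3.10.9 were used. Alternatives covered scaling, pseudocount, filters, nuclei per sum, the trend, the replicate block and libraries left out.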

Additional observations from a re-analysis of the deposited data

Results flagged for a closer look

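Among 186 groups of 9 libraries, 14 (7.53%) had 1 library far from the rest by Dixon's criterion, which chance passes in about 1 of 20 groups. The library labelled cervical replicate 2 was high in S2 for Grik1 at 289.5 CPM (next 105), Gria2 at 904 CPM (next 682), Glra3 at 47.1 CPM (next 25) and Glra2 at 44.2 CPM (next 13.5), and in all skeletal nuclei for Glra2 at 25.5 CPM (next 16.1). This is the library whose S2 nuclei also carried Zeb2 and Pax2, and its S2 sum held 71 nuclei; the part of either in the values was not tested. Cervical replicate 3 was high for Grin2b in skeletal motor neurons (503 CPM, next 409) and S1 (696, next 574), for Glra3 in visceral motor neurons (87.5, next 58.6) and S1 (24.4, next 16.2) and for Grik4 in visceral motor neurons (316, next 248), and low for Gria2 in interneurons (611, next 754). The others were Gabrg1 in S1 of cervical replicate 1 (108 CPM, next 71.7), Gabrg1 in S3 of lumbar/sacral replicate 1 (73.5, next 54.6) and Grin1 in S1 of lumbar/sacral replicate 3 (482, next 436).

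The lumbar/sacral log2 difference depended on the class, by a test of the difference itself in limma, for 18 values. Skeletal minus visceral motor neurons gave Grin2c 1.54, Grin2b 0.53, Glra1 -1.18, Gabrg3 -0.72, Gria3 -0.59, Grid1 -0.51 and Gria4 -0.41. Visceral motor neurons minus interneurons gave Glra1 1.14, Grik3 0.96, Gria3 0.46, Grid1 0.40, Grin2c -1.62, Glra2 -0.70, Gabre -0.68, Grin2b -0.63, Gria2 -0.47, Grik2 -0.47 and Grin2a -0.43.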

How the results depend on the processing

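Of 318 counts of members recomputed under alternatives, 285 stayed within 1.5 times the reported count. Of 1198 values of named members, 1109 kept direction and an adjusted p under 0.05, 87 lost that adjusted p and 2 reversed. A fall of the log2 difference below 1 was not counted as a loss. Between the 3 classes, and between S2 and S3, every called member kept an adjusted p under 0.05 in each alternative that tested it. Some fell below the size of a call. At their smallest, Gabra4 was -0.61 for skeletal motor neurons against interneurons, Glrb 0.77 for skeletal against visceral motor neurons and Grin2c 0.76 for S2 against S3. A pseudocount of 1 gave 10 called members for S2 against S3 in place of 6, and a pseudocount of 20 gave 6 for S2 against S1 in place of 11. For S2 against S1, Grik1 missed an adjusted p of 0.05 in 9 of 14 alternatives, and Grin2c in the libraries of higher Malat1 alone (adjusted p = 0.0684).

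Counts along the cord moved more. For visceral motor neurons the 0 members became 2 with a pseudocount of 20, 1 at 50 CPM or at 25 nuclei, 2 with the replicate block, 6 over all nuclei of the class and, with choices made after seeing the data, 1 without cervical and thoracic replicate 2 and 5 with a term for Malat1; leaving out each library gave 0 to 1. A Malat1 term gave 1 in interneurons. For skeletal minus visceral motor neurons the 7 became 2 without a filter and 1 without the trend, and 3 to 9 without 1 library (3 without lumbar/sacral replicate 1). For skeletal motor neurons minus interneurons the 0 became 1 with a pseudocount of 20, 25 nuclei, the replicate block, without cervical and thoracic replicate 2 or with CPM averaged before the log, 4 with a Malat1 term, and 0 to 1 without 1 library. For visceral motor neurons minus interneurons the 11 became 4 without a filter, 3 without the trend, 18 with CPM averaged before the log, and 7 to 12 without 1 library (7 without lumbar/sacral replicate 1 or 2). Summed over all nuclei of the class, visceral minus interneuron Glra2 reversed to 0.96 and Gria2 to 0.11; that setting lets the mix of clusters enter. The replicate block changed no other count by over 1.5 times. Between the male and female pools the 0 members became 0 to 4, 0 to 1 and 0 to 4 without 1 library. Median-of-ratios scaling moved the median of all genes by over 0.1 only in skeletal motor neurons along the cord. Members under 10 CPM are near the depth limit, and their absence in a cluster was not established.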
